A study of Mus musculus with 384 samples.

Results

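Hybrid cells sorted from mouse mammary glands after luminal cell ablation were set against luminal cells of wild-type (WT) glands. The members are the single-cell wells that the labels call hybrid cells of the doxycycline treatment or luminal cells of the WT condition. Wells were kept if genes held 100000 or more of their reads, if 1000 or more genes had a read, and if mitochondrial reads did not exceed 20%. This kept 85 of 92 hybrid wells and 43 of 50 WT luminal wells, which are 128 of the 384 wells of the plate. Among the 7 hybrid wells left out, 5 had too few reads and 2 too many mitochondrial reads. Among the 7 WT luminal wells left out, these numbers were 4 and 3. RNA was sequenced by Smart-seq2, which copies full-length transcripts of a cell sorted into a well and has no molecular identifiers.

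The mammary duct has an inner layer of luminal cells and an outer layer of basal, or myoepithelial, cells. Luminal cells make keratins 8, 18 and 19, seal the duct with tight junctions and can secrete milk, while basal cells make keratins 5 and 14 and contract to push milk out. In the adult gland each layer is mainly kept up by its own progenitors, and loss of luminal cells is a setting in which basal cells can take on luminal features.

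Hybrid cells came from mice killed 1 week after 0.2 mg doxycycline was injected into the ducts, and no injection or doxycycline is recorded for WT glands. The strain label of all these wells is K8rtta/TetO-DTA/K5CreER/Rosa-Tomato on a mixed background. By these names, the K8 (luminal keratin 8) promoter drives rtTA, so that doxycycline switches on diphtheria toxin A in K8 cells, and the K5 (basal keratin 5) promoter drives CreER, which can switch on Tomato. Cells were stained for CD29, CD24 and EpCAM, Tomato-positive cells were taken, and cells with CD45, CD31 or CD140a were excluded. The sources used here do not describe the gate for hybrid cells or name the animals. Each group therefore counts as 1 sample, no test between the groups was possible, and all intervals below cover counting error or the sampling of cells only. The sort gate, ablation, injection, doxycycline, animal and plate position cannot be told apart in this comparison. Hybrid wells lie on plate lines M to P and WT luminal wells on lines A to C.

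Kept hybrid cells held 118310 to 2414194 reads in genes, with a median of 1078728, and kept WT luminal cells 381450 to 3835005, with a median of 1372883. The groups summed to 95990962 and 71077421 reads, so that 3 reads correspond to 0.0313 and 0.0422 CPM (reads of a gene per 1000000 reads in all genes). After every cell was thinned at random to 100000 reads, hybrid cells showed a median of 4618 genes (2453 to 6801) and WT luminal cells a median of 2933 (2057 to 5110). WT basal cells, at a median of 2203.5 genes, were lower than both groups. After ablation, cells sorted as luminal had a median of 4335.5 genes, near that of hybrid cells, and cells sorted as basal 2695. Some results for the 65 hybrid wells with no more genes than the richest WT luminal well are given below. The part of the difference between hybrid and WT luminal wells in the results was not tested further. The median mitochondrial share was 2.54% in hybrid and 1.99% in WT luminal cells. The 5 negative control wells held 7930 to 13572 reads. No kept well had values identical to another, and wells that received more than 1 cell were not searched for.

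Of 10796 measured genes, those whose levels in both groups averaged 5 CPM or more, 353 (3.27%) were at least 4-fold higher in hybrid cells and 116 (1.07%) at least 4-fold lower. Group levels are reads summed over the kept cells in CPM, and ratios are log2 of hybrid over WT luminal after adding 10 CPM to each, which understates the ratio of low genes. The median log2 ratio of all measured genes was 0.18, with quartiles of -0.35 and 0.77, and 58.9% of genes were above 0. Scaling by TMM factors, which trim extreme genes, put this median at -0.03, and median-of-ratios scaling at -0.10, so a list is best read against 0.18. The counts were 288 higher and 164 lower after TMM scaling, and 271 higher and 187 lower after median-of-ratios scaling. The 12 genes that a rule of size and detection named as highest in hybrid cells were Sparc, Acta2, Myl9, Cnn1, Krt14, Krt15, Tpm2, Mylk, Krt5, Bgn, Emid1 and Cxcl14. Most of them are contractile, keratin or matrix genes, and their log2 ratios ran from 5.19 to 7.46. The 12 lowest were Slc5a5, Ccn5, Cck, Hp, Spp1, Dkkl1, C4b, Upk2, Aldh3b1, Scara5, Cyp2d22 and Abhd17c, from -4.48 to -2.45. Slc5a5 imports iodide, Cck is the hormone cholecystokinin, and Hp and C4b are a haemoglobin-binding protein and a complement component. In libraries of many cells, 1 per group with 2474838 (hybrid) and 1005368 (WT luminal) reads, all 24 of these genes had the same sign, as had 83.9% of the 353 higher and 71.6% of the 116 lower genes.

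**Figure D1:**
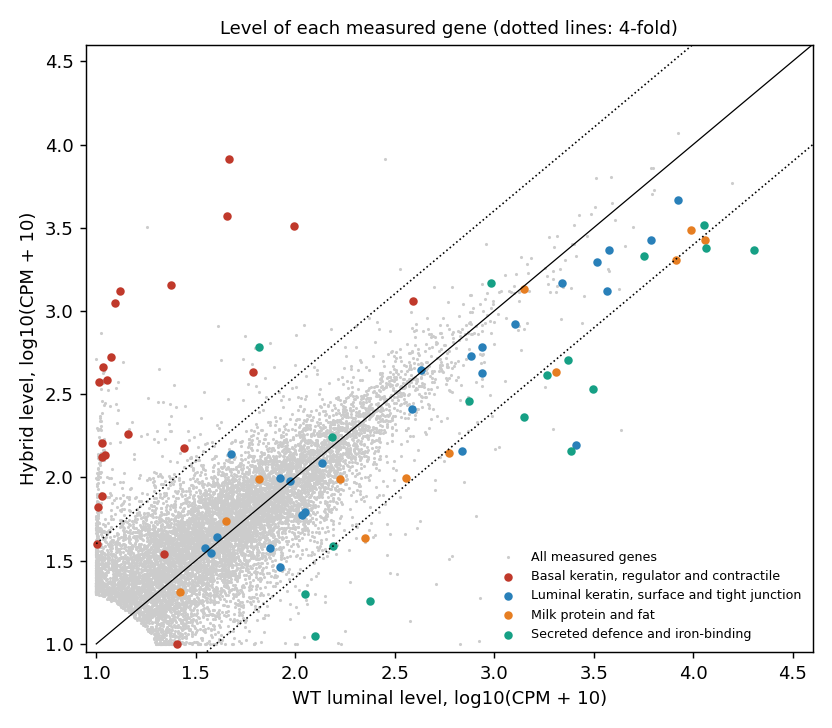
Level of every measured gene in hybrid cells against its level in WT luminal cells, as reads summed over kept cells in CPM plus 10 on log axes, with 1 point per gene. Dotted lines mark a 4-fold difference, beyond which lie 353 genes on the hybrid side and 116 on the WT luminal side.

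Basal keratins and regulators were far higher in hybrid cells. Of 10 genes on this list 9 were measured, all 9 lay above 0, and 8 were at least 4-fold higher (3.27% over all genes), with a median log2 ratio of 3.66. The exception to the 4-fold limit was Mef2c, a transcription factor of muscle genes, at 1.99, and Tbx2 was not measured. Summed over the list, hybrid cells had 8016 CPM and WT luminal cells 131 CPM.

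Krt14 (ENSMUSG00000045545.8, chr11:100203162-100207548, GRCm38), the basal keratin that pairs with keratin 5, reached 17.7 CPM in the lowest hybrid cell, 2012 in the median cell and 17519 in the highest. In WT luminal cells these values were 1.04, 8.37 and 770 CPM, and a single cell held 72.4% of all Krt14 reads of that group. Its summed level was 3714 CPM in hybrid and 35.4 CPM in WT luminal cells (95% Poisson intervals 3702 to 3726 and 34.001 to 36.8), a log2 ratio of 6.36 that became 7.46 without the highest cell of each group. The ranges overlapped, but the lower quartile of hybrid cells, at 883 CPM, lay above the highest WT luminal cell. By plate line the level was 3380 to 4322 CPM on the 4 hybrid lines and 7.55 to 99.9 CPM on the 3 WT luminal lines.

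Krt5 (ENSMUSG00000061527.6, chr15:101707070-101712898) had 0, 178 and 3279 CPM in the lowest, median and highest hybrid cell, against 0, 0.732 and 5.04 CPM in WT luminal cells, a log2 ratio of 5.42. At an equal depth of 100000 reads, 62 of 85 hybrid cells (72.9%, 95% exact interval 62.2 to 82.01) had at least 5 Krt5 reads, against 0 of 43 WT luminal cells, where 3 cells would be 6.98%. Krt17, a keratin of basal and injured epithelium, had a summed level of 3240 CPM in hybrid and 88.1 CPM in WT luminal cells, of which 55.6% came from 1 WT luminal cell. Trp63, the transcription factor p63 that maintains basal identity, was lower in level, at 67.8 CPM in hybrid and 0.633 CPM in WT luminal cells (log2 ratio 2.87). It was detected in 28 of 85 hybrid cells and 0 of 43 WT luminal cells, so most hybrid cells showed the basal keratins without detected Trp63 at this depth. For comparison, WT basal cells had 309 CPM of Trp63 and detected it in 12 of 44 cells. The remaining members were Oxtr, the oxytocin receptor through which milk ejection is triggered, at 3.91, Id4 at 3.66, Cdh3 (P-cadherin) at 3.61 and Snai2 (Slug) at 2.71 on the log2 scale.

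Contractile genes had the highest median of the lists, a log2 ratio of 5.09 over the 13 measured of 14 members. Of these 10 were at least 4-fold higher in hybrid cells and 0 lower (3.27% and 1.07% over all genes), and 12 lay above 0 (58.9% over all genes). Acta2 (ENSMUSG00000035783.8, chr19:34241090-34255590), smooth muscle actin, had 39.9, 5612 and 29035 CPM in the lowest, median and highest hybrid cell, and 3.47, 21.2 and 1176 CPM in WT luminal cells. Its summed level was 8119 CPM in hybrid cells and 36.7 CPM in WT luminal cells, a 221-fold difference and a log2 ratio of 7.44. WT basal cells had 5422 CPM, so the summed hybrid level was also above that of the WT cells of the basal gate. In libraries of many cells Acta2 was at 6752 CPM in hybrid, 6745 CPM in WT basal and 19454 CPM in basal cells sorted after ablation. A negative control well held 27.2 Acta2 reads on average, against 9169 per hybrid cell and 60.6 per WT luminal cell.

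Myl9, the regulatory light chain of smooth muscle myosin, was at 1301 CPM in hybrid and 3.22 CPM in WT luminal cells (log2 ratio 6.63), and Cnn1 (calponin) at 1104 and 2.38 CPM (6.49). Both were detected in 0 of 43 WT luminal cells, and in 80 and 75 of 85 hybrid cells. Tpm2 (tropomyosin, 5.91), Mylk (myosin light chain kinase, 5.48), Actg2 (a smooth muscle actin, 5.18) and Myh11 (myosin heavy chain, 5.09) followed. The members with smaller ratios were Tagln at 3.64, Cald1 at 2.80, Smtn at 2.44, Tpm1 at 1.56 and Lmod1 at 0.68. Des (desmin) was at 0 reads in hybrid cells and 15.5 CPM in WT luminal cells, a log2 ratio of -1.35 with 99.3% of those reads in 1 cell, and Myocd was not measured.

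The Myl9 promoter is shown because it alone of the 10 contractile promoters searched held a CArG box, the element bound by serum response factor. The 250 bases before its RefSeq start (GRCm38.p6, chr2:156775214-156775463, plus strand) are given with the box in capitals, which begins 161 bases before the start.
Myl9: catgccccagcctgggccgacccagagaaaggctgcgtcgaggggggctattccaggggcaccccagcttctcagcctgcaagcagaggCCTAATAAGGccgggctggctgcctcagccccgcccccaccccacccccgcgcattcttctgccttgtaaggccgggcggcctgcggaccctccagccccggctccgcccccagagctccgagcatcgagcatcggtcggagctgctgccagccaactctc
On either strand, a CArG box was present in 1 of the 10 contractile genes with a promoter in the RefSeq table and in 482 of 32851 windows of this length (1.47%). The members Actg2, Tagln, Myh11 and Myocd had no promoter in the RefSeq table and were not searched. No match says only that these letters are not in this window.

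Genes of the basement membrane and of its anchors were higher with a smaller median. All 16 laminin, integrin and hemidesmosome genes were measured, with a median of 1.36. Of these 15 lay above 0 (58.9% over all genes), and 6 were at least 4-fold higher (3.27% over all genes). Col17a1, the collagen of hemidesmosomes, had the largest ratio at 4.65, with 268 CPM in hybrid and 1.10 CPM in WT luminal cells. The collagen IV chains Col4a2 and Col4a1 were at 3.87 and 3.41, although 94.2% of the WT luminal Col4a2 reads and 56.3% of the Col4a1 reads came from 1 cell. The laminin chains Lama3 and Lamb3, which help anchor epithelia to the basement membrane, were at 3.41 and 2.76. The integrins Itga6 and Itgb4, which bind laminin, were at 1.24 and 1.27, and Itgb4 was at -0.90 in the libraries of many cells. Cd151, a tetraspanin partner of integrins, was the member below 0, at -0.16.

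Matrix and secreted genes of basal cells gave 11 of 15 members at least 4-fold higher (3.27% over all genes) and a median of 3.48. Like the other lists, this one was chosen with earlier results of these data known, so its count is a description only. Sparc (ENSMUSG00000018593.13, chr11:55394500-55423183), a calcium-binding matrix protein, had the largest log2 ratio of all named genes, 7.46, with 3171 CPM in hybrid and 8.06 CPM in WT luminal cells. Hybrid cells ranged over 80.4, 2709 and 11494 CPM in the lowest, median and highest cell, against 0.540, 8.11 and 40.8 CPM in WT luminal cells. These ranges did not overlap, and 85 of 85 hybrid cells against 1 of 43 WT luminal cells detected Sparc. Emid1 (5.29), the chemokine Cxcl14 (5.19), the activin antagonist Fst (4.87), Fbln2 (4.76) and Mgp (4.51) were the next members. Ccn1, a matrix protein induced by mechanical stress, was at -0.22 with 846 CPM in hybrid and 984 CPM in WT luminal cells.

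Luminal keratins and surface genes were lower in hybrid cells but remained abundant. Of 12 measured genes on this list of 13, all 12 lay below 0, where 41.1% of all genes did, with a median of -0.72, and 2 were at least 4-fold lower (1.07% over all genes). Krt8 (ENSMUSG00000049382.9, chr15:101996698-102004482) had 6.68, 1488 and 8866 CPM in the lowest, median and highest hybrid cell, and 19.1, 2272 and 13105 CPM in WT luminal cells. Its partner Krt18 (ENSMUSG00000023043.6, chr15:102028180-102032027) had 38.98, 3652 and 12439 CPM in hybrid cells, and 247, 5666 and 18840 CPM in WT luminal cells. The groups overlapped widely for both keratins, and the log2 ratios of the summed levels were -0.70 for Krt8 and -0.84 for Krt18.

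Krt19 (ENSMUSG00000020911.14, chr11:100140810-100148665) was at 2670 CPM in hybrid and 6157 CPM in WT luminal cells (log2 ratio -1.20), and Krt7 at 412 and 858 CPM (-1.04). WT basal cells had 40.6 CPM of Krt19, so that hybrid cells lay far above the WT basal level of this luminal keratin. Cells detecting it made up 84.7% of hybrid cells, 95.3% of WT luminal cells and 13.6% of WT basal cells. The 2 members past the 4-fold limit were Ly6d, a surface protein anchored by a lipid, at -4.02, and the mucin Muc1 at -2.25. Ly6d was uneven in both groups, detected in 23 of 85 hybrid and 17 of 43 WT luminal cells. The genes of the sort antigens differed less, with Epcam at -0.74 (1958 CPM in hybrid and 3269 CPM in WT luminal cells), Cd24a at -0.53 and Itgb1, which encodes CD29, at 0.53.

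Junction genes differed by kind. Of the 13 tight junction genes 0 passed the 4-fold limit, which 3.27% of all genes passed as higher and 1.07% as lower, so this count says little. Their median was -0.52, although the claudin Cldn4 stood at -1.49 (1306 CPM in hybrid and 3696 CPM in WT luminal cells) and the adaptor Cgn at -1.52. Cldn3 was at -0.59, Ocln at 0.01, Tjp1 at 0.11 and Cldn1 at 1.54. Among 12 measured of 14 cadherin and desmosome genes the median was 0.68, and Cdh3 (3.61) and the plakophilin Pkp1 (3.08) were at least 4-fold higher. Cdh1, the E-cadherin of both layers, had 346 CPM in hybrid and 363 CPM in WT luminal cells.

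**Figure D2:**
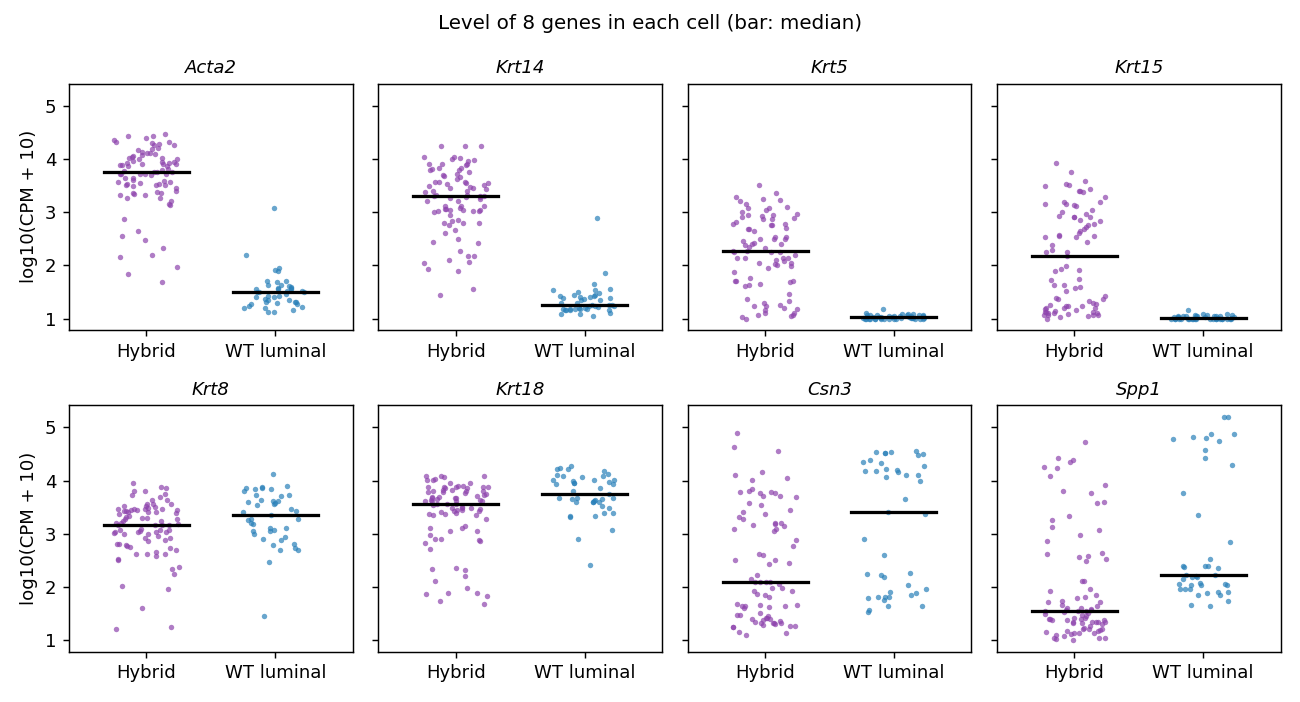
Level of 8 genes in each kept cell, hybrid cells left of WT luminal cells, as CPM plus 10 on a log axis, with 1 point per cell and a bar at the median. Hybrid cells lie mostly above WT luminal cells for Acta2, Krt14, Krt5 and Krt15, overlap them for Krt8 and Krt18, and have lower medians for Csn3 and Spp1.

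Milk protein genes were lower in hybrid cells, with large differences among cells. Of 16 milk protein and milk fat genes 12 were measured, and 5 were at least 4-fold lower and 0 higher (1.07% and 3.27% over all genes). The median was -1.77 in single cells and -0.85 in the libraries of many cells. Csn3 (ENSMUSG00000001622.15, chr5:87925579-87932665), kappa casein, had 2.52, 114 and 78917 CPM in the lowest, median and highest hybrid cell, and 23.9, 2608 and 35262 CPM in WT luminal cells. The quartiles spread over 19.9 to 2049 CPM in hybrid cells and 70.2 to 17681 CPM in WT luminal cells, so both groups held cells with little and cells with much of this transcript. Its summed level was 2668 CPM in hybrid and 11416 CPM in WT luminal cells (log2 ratio -2.09), and WT basal cells had 36.02 CPM. In libraries of many cells Csn3 was at 2675 CPM in hybrid, 10298 CPM in WT luminal and 2814 CPM in luminal cells sorted after ablation. Its lower level was thus not particular to hybrid cells there.

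Csn1s1, alpha casein, had 2007 CPM in hybrid and 8152 CPM in WT luminal cells (-2.02) and was detected in 35 of 85 and 30 of 43 cells. In libraries of many cells it was at 4195 CPM in hybrid, 6756 CPM in WT luminal and 504 CPM in luminal cells sorted after ablation. Csn2, beta casein, was at 1341 and 1409 CPM (-0.07), but 1 hybrid cell held 63.9% of the Csn2 reads of its group, and the ratio was -1.28 without the highest cell of each group. The other members past the limit were Csn1s2a (-2.37), the lipid droplet protein Plin2 (-2.24) and butyrophilin, Btn1a1 (-2.09), although Plin2 was at 1.31 in the libraries of many cells. Lalba, needed for lactose synthesis, was at -1.86 and the milk fat globule protein Mfge8 at -1.67. The lipid synthesis genes Fasn and Scd2 were at 0.30 and 0.58. Csn1s2b, Wap, Glycam1 and Fabp3 were not measured.

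Promoters of 2 caseins are shown because casein transcription in this gland is known to be driven by prolactin through STAT5, which binds TTCNNNGAA, a motif whose reverse complement is itself. The 250 bases before the RefSeq starts (GRCm38.p6) of Csn1s1 (chr5:87665958-87666207, plus strand) and Csn2 (chr5:87699426-87699675, minus strand) are given with that motif in capitals, which begins 100 and 93 bases before the start.
Csn1s1: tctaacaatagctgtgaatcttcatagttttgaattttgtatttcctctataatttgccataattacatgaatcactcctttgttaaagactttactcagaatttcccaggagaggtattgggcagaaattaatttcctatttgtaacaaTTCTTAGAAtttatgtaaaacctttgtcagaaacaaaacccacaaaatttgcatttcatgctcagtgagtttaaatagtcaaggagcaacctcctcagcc
Csn2: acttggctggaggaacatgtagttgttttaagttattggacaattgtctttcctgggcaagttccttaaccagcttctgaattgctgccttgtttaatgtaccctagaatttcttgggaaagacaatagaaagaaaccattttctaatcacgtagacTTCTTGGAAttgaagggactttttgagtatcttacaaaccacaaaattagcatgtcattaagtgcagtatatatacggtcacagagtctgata
The motif was present in 3 of the 10 milk genes with a promoter in the RefSeq table, the third being Glycam1, and in 2306 of 32851 windows (7.02%). The receptor of this pathway, Prlr, had 340 CPM in hybrid and 1789 CPM in WT luminal cells (log2 ratio -2.36), while Stat5a and Stat5b were at -0.10 and 0.34.

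Luminal and alveolar regulators stood closer to 0 than the genes above. Of 14 genes 0 passed the 4-fold limit, which 3.27% of all genes passed as higher and 1.07% as lower, so this count says little. The median was -0.15, against 0.18 over all genes. Elf5, the alveolar factor, had 34.3 CPM in hybrid and 111 CPM in WT luminal cells (-1.45), and the epithelial factor Elf3 was at -1.85. Gata3, which maintains luminal identity, was at -0.58 with 293 CPM in hybrid and 443 CPM in WT luminal cells, and it was detected in 72.9% and 72.1% of cells. Sox9 (0.89) and Tfap2c (1.04) lay on the other side of 0.

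Hormone-sensing luminal genes, which mark a separate luminal lineage, had a median of -0.54 over 11 measured of 12 members. The list summed to 1469 CPM over hybrid cells and 3469 CPM over WT luminal cells, but to 127 and 141 CPM in the median cell. At least 4-fold lower were 3 members (1.07% over all genes). These were Fxyd2, a subunit of the sodium pump, at -4.79 (3.64 CPM in hybrid and 368 CPM in WT luminal cells), Ly6a (Sca-1) at -2.59 and Prlr at -2.36. The receptors Esr1 and Pgr were at -0.27 and -1.35, and their pioneer factor Foxa1 at -1.18. Areg, an oestrogen-induced EGFR ligand, was higher at 1.30, and at 4.16 without the highest cell of each group, since 1 WT luminal cell held 94.6% of that group's Areg reads.

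Secreted defence and iron-binding genes were the list with most members far lower in hybrid cells. Of 17 measured genes 11 were at least 4-fold lower and 1 higher (1.07% and 3.27% over all genes). The median was -2.21 in single cells and -1.13 in the libraries of many cells. Spp1 (osteopontin) had 0, 25.8 and 52211 CPM in the lowest, median and highest hybrid cell, against 33.9, 157 and 159380 CPM in WT luminal cells. In both groups a minority of cells with high levels set the sum, and the log2 ratio of the summed levels was -3.10. In libraries of many cells Spp1 was at 5561 CPM in hybrid, 20257 CPM in WT luminal and 32.7 CPM in luminal cells sorted after ablation. Its lower level was thus not particular to hybrid cells there. Hp, haptoglobin, was at 134 CPM in hybrid and 2417 CPM in WT luminal cells (-4.07) and was detected in 16 of 85 and 26 of 43 cells. Ltf (lactoferrin) was at -3.20, transferrin, Trf, at -2.21 and the chitinase-like Chil1 at -2.29.

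Lcn2, which binds bacterial iron chelators, was at -1.79 on the log2 scale, with 3283 CPM in hybrid and 11349 CPM in WT luminal cells, and 97.6% and 88.4% of cells detected it. Saa1 and Saa2, acute phase proteins, were at -3.72 and -3.49, but neither had a read in the libraries of many cells. Slpi, a protease inhibitor, was the member past the limit in the other direction at 3.20, and it was at -1.95 in the libraries of many cells. Its direction therefore differed between the 2 kinds of library.

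Scores per cell put the basal and luminal programmes side by side. The basal score is the mean log2(CPM + 10) over the basal keratin and contractile lists (24 genes), and the luminal score that over the luminal keratin and surface and the tight junction lists (26 genes). The basal score had a median of 7.003 in hybrid cells (4.29 to 9.06), 3.85 in WT luminal cells (3.47 to 4.49) and 6.53 in WT basal cells (4.35 to 8.31). The luminal score had medians of 6.67 in hybrid cells (3.995 to 8.21), 6.97 in WT luminal cells (5.92 to 8.25) and 4.30 in WT basal cells (3.71 to 5.50). Most hybrid cells thus had basal scores in the range of WT basal cells and luminal scores in the range of WT luminal cells.

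Of 85 hybrid cells, 83 (97.6%, 91.8 to 99.7) had a basal score above every WT luminal cell, and 25 (29.4%, 20.02 to 40.3) had a luminal score below every WT luminal cell. A basal score above and a luminal score within the WT luminal range were found together in 58 cells (68.2%, 57.2 to 77.9). Both scores lay within the WT luminal range in 2 cells, and in 25 both lay outside it. Against WT basal cells, 63 hybrid cells (74.1%) had a luminal score above the highest. Within hybrid cells the scores had a Pearson r of -0.44 over 85 cells, and within WT luminal cells 0.20 over 43. These cells share a plate, and r is given as a description. In cells sorted as luminal after ablation, 43 of 76 (56.6%) lay above the WT luminal range of the basal score and 8 (10.5%) below that of the luminal score.

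**Figure D3:**
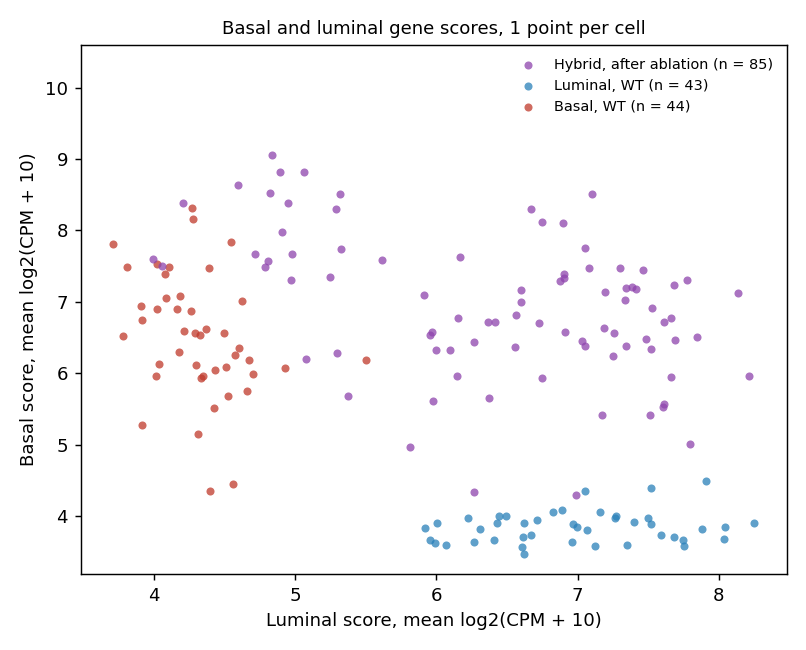
Basal score against luminal score of each kept cell, both as mean log2(CPM + 10), for hybrid, WT luminal and WT basal cells with 1 point per cell. Hybrid cells have a median basal score of 7.003, against 3.85 in WT luminal cells, and 25 of the 85 reach luminal scores below every WT luminal cell.

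Genes of both layers were also detected in the same hybrid cells. After thinning, at least 2 of Krt5, Krt14, Krt17, Acta2, Myl9 and Tagln together with at least 2 of Krt7, Krt8, Krt18, Krt19, Cldn3 and Cldn4, at 5 reads or more each, were found in 82 of 85 hybrid cells (96.5%, 90.03 to 99.3). The same held in 2 of 43 WT luminal cells (4.65%, 0.568 to 15.8), and 41 of them had the luminal set without the basal set. The measure has a background, since 19 of 44 WT basal cells (43.2%) met it too. It was also met by 47 of 76 cells sorted as luminal after ablation (61.8%) and 26 of 71 sorted as basal (36.6%), so it was not particular to hybrid cells. At a detection limit of 1 read it was met by 100% of hybrid and 72.1% of WT luminal cells.

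A pair with less background in WT cells was Krt14 with Krt19, which 71 of 85 hybrid cells (83.5%, 73.9 to 90.7), 2 of 43 WT luminal cells (4.65%) and 3 of 44 WT basal cells (6.82%) detected together. After ablation, 48 of 76 cells sorted as luminal (63.2%) and 5 of 71 sorted as basal (7.04%) also detected both. Of the other hybrid cells, 12 had Krt14 alone of the pair and 1 had Krt19 alone. Krt5 and Krt8 were found together in 60 of 85 hybrid cells and 0 of 43 WT luminal cells, and in 19 of 44 WT basal cells. After ablation, 18 of 76 luminal and 33 of 71 basal cells had them together. Acta2 and Csn3, a contractile gene and a milk gene, shared 52 of 85 hybrid cells (61.2%), 7 of 43 WT luminal cells (16.3%) and 15 of 44 WT basal cells (34.1%). After ablation they shared 10 of 76 luminal cells (13.2%) and 11 of 71 basal cells (15.5%). Negative control wells held 114 Csn3 reads on average, and after the mean reads of these wells were subtracted from each cell the pair was found in 39 hybrid, 3 WT luminal and 1 WT basal cells. With that subtraction Krt14 and Krt19 were together in 62 hybrid, 2 WT luminal and 0 WT basal cells, and both gene sets were detected in 78 hybrid cells (91.8%), 1 WT luminal cell (2.33%) and 10 WT basal cells (22.7%). Hybrid wells showed more genes at equal depth than WT luminal wells, and among the 65 hybrid wells with no more genes than the richest WT luminal well the share detecting both sets was 95.4%. Whether some wells held more than 1 cell was not tested.

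Keratins of injured and progenitor epithelium did not behave as a group. Of 8 on the list 4 were measured. Krt15, a keratin of basal progenitors in stratified epithelia, had 727 CPM in hybrid and 0.535 CPM in WT luminal cells (log2 ratio 6.13), and was detected in 48 of 85 and 0 of 43 cells. WT basal cells had 124 CPM and detected it in 3 of 44 cells. In libraries of many cells Krt15 was at 43.2 CPM in hybrid, 0 CPM in WT basal and 330 CPM in basal cells sorted after ablation. Krt23 was at 3.72 and Krt16 at 1.29, while 99.4% of the WT luminal Krt16 reads came from 1 cell. Krt4 was at -6.35, with 0.354 CPM in hybrid and 833 CPM in WT luminal cells, but 1 cell held 78.1% of the WT luminal reads, and the libraries of many cells had no more than 3 reads each, too few for a ratio. Krt6a, a keratin of wounded epithelium, was below the measured level in both groups, at 2.38 CPM in hybrid and 3.17 CPM in WT luminal cells, while cells sorted as luminal after ablation had 238 CPM.

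Connexins, the channels between cells, and aquaporins gave 6 measured of 11 with a median of 1.19. Gja1, the connexin of basal cells, was at 3.73 (276 CPM in hybrid and 11.5 CPM in WT luminal cells). Aqp5, the water channel of secretory epithelia, was at -1.08 and was detected in 36.5% of hybrid and 67.4% of WT luminal cells.

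Some genes were above the level of both WT cell types. By the rule for named genes, the 8 with the largest ratio over the higher of WT luminal and WT basal cells were Actg2, Sostdc1, Fgg, Emid1, Olfml3, Fmod, Col9a1 and Igfbp4. Actg2 had 365 CPM in hybrid, 0.338 CPM in WT luminal and 14.2 CPM in WT basal cells, and 58.8% of hybrid cells, 0% of WT luminal cells and 6.82% of WT basal cells detected it. Sostdc1, an antagonist of BMP and Wnt ligands, had 126 CPM in hybrid, 0.338 CPM in WT luminal and 0.780 CPM in WT basal cells. Fgg, a fibrinogen chain, had 289 CPM in hybrid, 8.15 CPM in WT luminal and 14.1 CPM in WT basal cells, and 95.2% of its WT luminal reads came from 1 cell. These genes were detected in 25.9% to 76.5% of hybrid cells, and 6 of the 8 in no more than 38.8%. All 8 were also above 0 in the libraries of many cells against WT luminal cells. Basal cells sorted after ablation had 351 CPM of Actg2, 262 CPM of Sostdc1 and 440 CPM of Fmod.

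**Figure D4:**
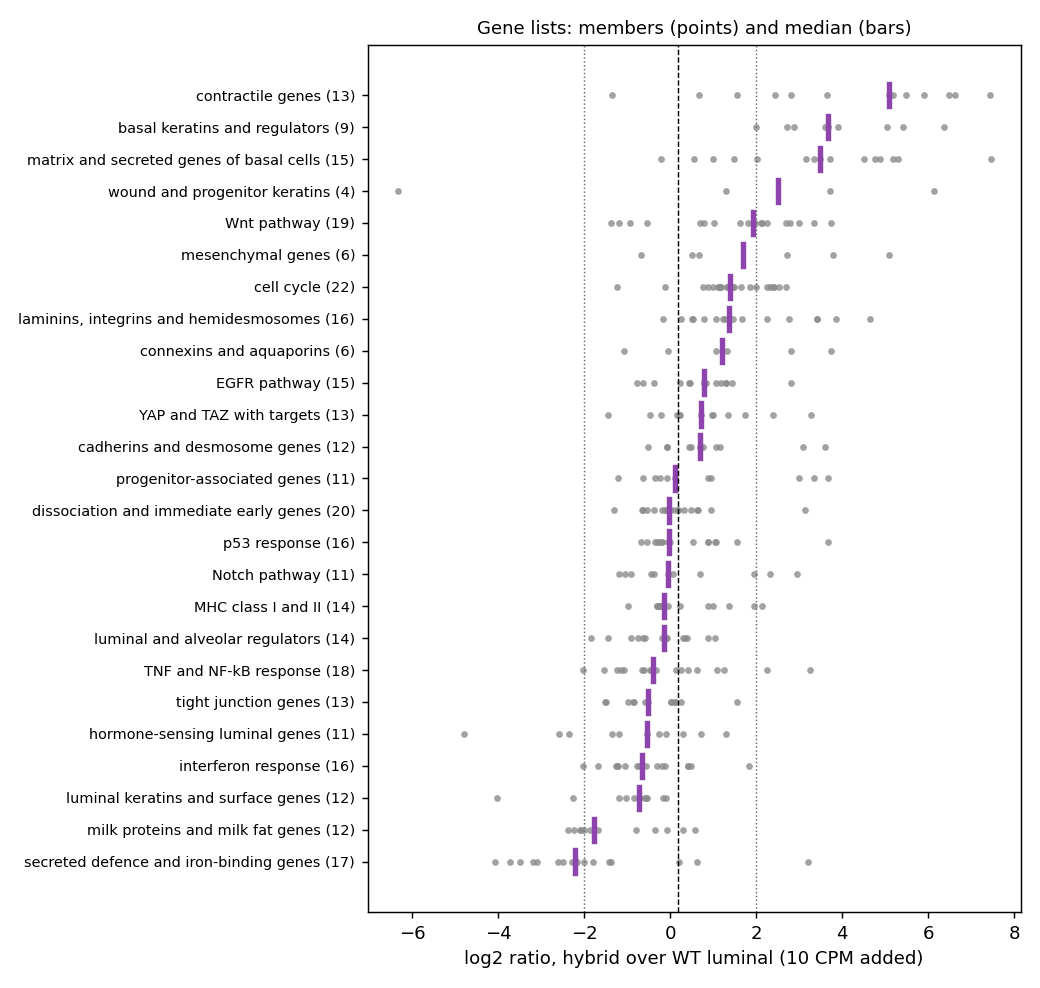
Log2 ratio of hybrid over WT luminal cells for the measured members of each gene list, with 1 small point per gene and a larger mark at the list's median. Lists of markers of other cells are not drawn. The dashed line is the median of all measured genes, 0.18, and dotted lines mark a 4-fold difference. Contractile genes have the highest median, 5.09, and secreted defence genes the lowest, -2.21.

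Among signalling lists, Wnt pathway genes had the largest median in single cells, 1.92 over 19 measured of 22. Of these 8 were at least 4-fold higher and 0 lower (3.27% and 1.07% over all genes). In the libraries of many cells the median of this list was 0.77, against 0.31 over all genes. Dkk3, a secreted Dickkopf protein, was at 3.73, and the R-spondin receptors Lgr5, Lgr6 and Lgr4 were at 3.36, 3.00 and 2.10. Lgr5 was detected in 24.7% of hybrid and 0% of WT luminal cells. Neither Lgr5 nor the ligand gene Wnt10a had more than 3 reads in either library of many cells. Wnt10a was at 2.78, and the co-receptor Lrp5 was at -1.38. Axin2, a common target of the pathway, was not measured, with 1.98 CPM in hybrid and 0.0703 CPM in WT luminal cells.

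Notch genes had a median of -0.05 over 11 measured of 18. The ligands Dll1 and Jag2, presented by one cell to the receptor on its neighbour, were at 2.94 and 2.33, and Jag1 at 1.96. The receptors Notch1 and Notch3 were at -1.05 and -1.20 Notch2 at -0.38 and the target Hey1 at -0.92. In the libraries of many cells Notch1 was at 1.57, and Jag2 had no reads in either. EGFR pathway genes had a median of 0.79 over 15 measured of 17, and 1 was at least 4-fold higher (3.27% over all genes). It was the ligand Nrg1 at 2.81 (60.5 CPM in hybrid and 0.0563 CPM in WT luminal cells). The receptor Egfr was at 0.79 and the ligand Hbegf at -0.63.

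Medians of the TNF and interferon lists were below 0 in single cells and above 0 in the libraries of many cells. The TNF and NF-kB list had a median of -0.40 over 18 measured of 21, 0.06 without the highest cell of each gene, and 1.32 in the libraries of many cells. Icam1, an adhesion molecule for leukocytes, was at 3.26 with 591 CPM in hybrid and 52.7 CPM in WT luminal cells, Ccl2 was at 2.24, and Cxcl2 was at -2.04 in single cells and 3.19 in the libraries of many cells. For the interferon list the median was -0.65 over 16 measured of 20, and 0.26 in the libraries of many cells. Its member past the limit, Irf7, was at -2.02 in single cells and at 1.56 in those libraries. The MHC class I and II list had a median of -0.14 over 14 measured of 16. Its class I genes B2m, H2-K1, H2-D1, H2-T23 and H2-Q7 lay between -0.31 and -0.05. The class II genes H2-Aa, without a read in WT luminal cells, and H2-Ab1 were at 1.95 and 1.36. The member of this list past the limit was Cd74, the invariant chain of class II, at 2.14. It was detected in 21.2% of hybrid and 4.65% of WT luminal cells.

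The cell cycle list summed to 950 CPM over hybrid cells and 447 CPM over WT luminal cells, but to 326 CPM in the median cell of either group. Of 22 measured of 24 genes, 7 were at least 4-fold higher and 0 lower (3.27% and 1.07% over all genes). The median was 1.39, the same to 2 decimals when genes without reads in a group were set to 3 reads. Mki67 and Cdk1, which are made in dividing cells, had 43.2 and 47.6 CPM in hybrid cells and no read in WT luminal cells, where 3 reads would be 0.0422 CPM. Each was detected in 13 of 85 hybrid cells (15.3%) and 0 of 43 WT luminal cells, where 3 cells would be 6.98%. The median hybrid cell had 0 CPM of both. The G1 cyclins lay on opposite sides of 0, with Ccnd2 at 2.69 and Ccnd1 at -1.25. In the libraries of many cells the median of the list was 0.00, and Mki67 and Cdk1 had no reads in either group.

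Medians of 3 further lists lay close to that of all genes. For p53 response genes the median was -0.04 over 16 measured of 17, and Phlda3, an inhibitor of AKT signalling, stood out at 3.67 with 122 CPM in hybrid and 0.380 CPM in WT luminal cells. Progenitor-associated genes had a median of 0.10, which was -0.11 after TMM scaling, with Id4, Lgr5 and Lgr6 past the 4-fold limit. Dissociation and immediate early genes had a median of -0.03 over 20 measured of 21, and Egr2 at 3.13 was their member past it. YAP and TAZ genes had a median of 0.73 over 13 measured of 14, and -0.35 in the libraries of many cells. Their members past the limit were the receptor kinase Axl at 3.27 and Nt5e at 2.40.

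Mesenchymal genes gave 6 measured of 14, of which 3 were at least 4-fold higher (3.27% over all genes), with a median of 1.68. These were the matrix protease Mmp2 at 5.10, vimentin, Vim, at 3.80 and Snai2 at 2.71. The other 8 members were not measured. Among these, Prrx1 had 7.40 CPM in hybrid and 0.127 CPM in WT luminal cells, Cdh2 had 3.34 CPM in hybrid and 0.0281 CPM in WT luminal cells, and Fn1 had 3.02 CPM in hybrid cells and no read in WT luminal cells. Of the transcription factors that drive mesenchymal change, Twist1 had 0.573 CPM in hybrid cells and no read in WT luminal cells, Zeb1 had 0.156 CPM in hybrid and 0.900 CPM in WT luminal cells, and Zeb2 and Twist2 had no read in either group.

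Markers of other cells were at low summed levels in most lists. Immune markers, 2 of 10 measured, summed to 38.3 CPM in hybrid cells (0 to 990 in single cells) and 5.89 CPM in WT luminal cells (0 to 1012), with Adgre1, Itgam and Laptm5 at 0 in both. Endothelial markers summed to 15.3 and 0.0563 CPM, adipocyte markers to 6.51 and 0.141 CPM, pericyte markers to 23.5 and 40.01 CPM, skin keratinocyte markers to 23.9 and 24.7 CPM, and nerve and Schwann markers to 87.4 and 32.5 CPM, in hybrid and in WT luminal cells. Few of these were measured, namely 1 of 8 endothelial, 0 of 5 adipocyte, 1 of 6 pericyte, 2 of 8 skin and 2 of 5 nerve markers. Of the measured ones 0 passed the 4-fold limit (3.27% of all genes higher and 1.07% lower), so this count says little. Fibroblast markers summed to 525 CPM in hybrid and 577 CPM in WT luminal cells, nearly all of it Dcn, a matrix proteoglycan, while Lum was at 0 in both. Dcn had 473 CPM in hybrid and 571 CPM in WT luminal cells, was detected in 56 of 85 and 7 of 43 cells, and had a log2 ratio of -0.27 in single cells and 5.08 in the libraries of many cells. In WT basal cells, sorted with the same exclusions, Dcn was at 813 CPM. Erythroid markers summed to 795 CPM in hybrid and 9.65 CPM in WT luminal cells, and 99.7% of the hybrid Hbb-bs reads came from 1 cell.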

How the data were processed

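The authors deposited 1 table of raw counts, with a row for each gene and a column for each of the 384 Smart-seq2 wells. Its values are whole numbers with unequal totals and so were not normalized. GRCm38, STAR 2.5.2b, HTSeq 0.6.0, cutadapt 1.13 and Seurat are named in the submitters' processing notes, with no roles, and the annotation used for counting was not given in the sources used here. There are 49585 genes and 92 spike-in rows, which held 11 reads in all and were not used. GENCODE M21 on GRCm38 gave symbols and coordinates for 49326 of the identifiers. Whether counting used strand is not given, so overlapping genes can share reads.

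Groups come from the labels. Levels are summed reads in CPM with exact Poisson 95% intervals, and shares carry exact Clopper-Pearson 95% intervals after thinning each cell to 100000 reads with detection at 5 reads. No molecular identifiers were used, so intervals and the floor of 3 reads cover counting error only. With 1 sample per group no test was run. The members and the 33 gene lists were chosen with earlier results of these data known.

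Genes were named by rule. These were the 12 highest and the 12 lowest log2 ratios with at least 50 CPM and detection in 25% of cells of the higher group, a share at least 20 points above the lower group, and the same sign without the highest cell of each group. The rule also took the 8 highest over both WT groups (10 points above each), the members of 5 lists and up to 4 of each other list. Genes beside them were chosen after their values were seen, and some members of lists are not reported here by name.

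Alternatives were other limits for wells (50000 or 200000 reads, 2000 genes, 10% or no mitochondrial limit), equal weight per cell, TMM (edgeR 4.0.16) and median-of-ratios scaling, 1 CPM added, other filters on low levels, removal of the highest cell, libraries of many cells, other detection rules and other score scales. Restricting hybrid wells by gene number and subtracting reads of negative wells were added after seeing the data. The ratio of group levels was checked with simulated counts and the thinning with the counts of a hybrid cell, and the other steps were not checked this way. Python 3.11.15, numpy 2.4.6, pandas 2.3.3, scipy 1.17.1 and R 4.3.3 were used.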

Additional observations from a re-analysis of the deposited data

How the results depend on the processing

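No paired analysis was possible because no test was run and replicate numbers follow accession order. Of the 353 genes at least 4-fold higher in hybrid cells and the 116 at least 4-fold lower, counts stayed within 1.5 times under other well limits, equal weight per cell, TMM scaling, other filters on low levels, and the added alternatives run for these counts. With 1 CPM added they were 1362 and 505, and in libraries of many cells 1735 and 742. Median-of-ratios scaling gave 187 lower genes, and leaving out the highest cell of each gene gave 72. All 353 and 116 kept their sign under both scalings and without the highest cell. Of the rule and list genes past the 4-fold limit in single cells, those with the other sign in libraries of many cells were Plin2 at 1.31, Cxcl2 at 3.19, Irf7 at 1.56, Fcgbp at 0.74, Hba-a1 at -1.83, Slpi at -1.95 and Ube2c at -1.53, and the median of erythroid markers was -1.83. Counting genes short of that limit, such as Dcn, Itgb4 and Notch1, 101 of 321 signs differed there, and genes with no more than 3 reads in both libraries were left out. The cause was not tested. Of 348 such genes 21 changed sign under TMM scaling, 22 under median-of-ratios scaling, 17 with equal weight per cell, 23 without the highest cell and 16 in the wells limited by gene number, all with single-cell log2 ratios no larger than 1.30, and 0 under the other alternatives. Under TMM scaling the median of progenitor-associated genes was -0.11, against 0.10, and that of skin keratinocyte markers -0.10, against 0.05. The share of hybrid cells detecting both gene sets was 100% at 1 read, without thinning and with 1 of 6 genes required, 81.2% at 20 reads and 88.2% with 3 of 6 genes. In WT luminal cells these were 72.1%, 90.7%, 27.9%, 0% and 0%. Shares based on scores moved by less than their intervals under all alternatives run. Depth limits genes of a few CPM, and with 1 sample per group no difference between animals can be judged.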
